A study of Citrullus lanatus with 26 samples.

Results

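Small RNA in the flesh of watermelon (Citrullus lanatus) of the cultivar 97103 was compared between fruit of 20 DAP and fruit of 10 DAP. DAP is the unit of fruit age that the labels use. The comparison was set by the labels and holds 3 libraries at 20 DAP (titles CT) and 3 at 10 DAP (titles BW), 6 of the 26 libraries of the series. All 6 come from flesh of 97103, a cultivar of the subspecies vulgaris, and the labels name no treatment or transgene. The other 12 libraries of the same set, at 0, 1, 5 and 30 DAP with 3 replicates each, served to estimate the spread and to place the change in the fruit's course. A further 8 libraries, tabulated over a separate set of names and including another pair from 97103 at 10 DAP, were not used. Whether the replicates are different fruit or plants is not labelled. The p-values thus reflect the spread of these libraries alone, and this may be technical. Each library lists the same 208 miRNA names. Of these, 179 are numbered novel_miR names. The other 29 are named after a miRNA family of another plant and are called known-family names here, with cme standing for melon (Cucumis melo). Whether each family is conserved is not given. The files hold no sequences, so none is shown here.

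Plant miRNAs are short RNAs cut from hairpin precursors by a Dicer-like enzyme. Loaded into ARGONAUTE proteins, they direct cleavage or translational repression of complementary mRNAs, and many conserved families act on transcription factors that set organ growth and developmental timing. Watermelon flesh is known to pass, over the ages compared here, from growth of firm pale tissue to the build-up of sugars and carotenoids. No miRNA family is a defining marker of fruit flesh, so the tissue label could not be checked against these names.

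The libraries at 10 DAP hold 114407 to 133390 listed counts and those at 20 DAP 62050 to 107910, so the older flesh was measured at lower depth. Levels are given as CPM, counts scaled to library size, with trimmed-mean (TMM) factors, which take most names as unchanged. These factors spanned 0.997 to 1.31 at 10 DAP and 0.886 to 0.929 at 20 DAP. Replicate 1 at 10 DAP, with the factor of 0.997, stood apart from the other replicates of its age. It had the highest level of the 3 libraries at 10 DAP for 19 of the 23 known-family names that were tested and had a count, against 76 of the 179 novel_miR names. The count of calls is also given without it.

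Leaving aside names with few counts, 3 known-family names and several novel_miR names rose several-fold between 10 and 20 DAP. cme-miR319c, a regulator of TCP growth genes, went from 24398 ± 6679 to 76114 ± 3663 CPM (SD, n = 3 each). cme-miR166b, which acts on HD-ZIP III genes, went from 9149 ± 3131 to 32473 ± 2722 CPM, and cme-miR164c, which acts on NAC genes, from 1142 ± 422 to 7996 ± 905 CPM. Among novel_miR names, novel_miR_101 went from 329 ± 126 to 8783 ± 1309 CPM and novel_miR_121 from 25294 ± 1210.0 to 116130 ± 3546 CPM.

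Of 204 names tested, 40 were called by edgeR's quasi-likelihood test at a Benjamini-Hochberg adjusted p under 0.05, which is 19.6%. They were 19 higher (9.31%) and 21 lower (10.3%) at 20 DAP, and a further 4 names were too low to test. Of the called rises 13 were at least 2-fold, and of the called falls 8. In all 40 called names the 3 libraries at 20 DAP lay apart from the 3 at 10 DAP, while 41.7% of all tested names did so, 21.6% above and 20.1% below. The called names hold copies: joined where counts lay within 0.1 on the log2 scale of count plus 1 in all 18 libraries, they make 37 profiles, 17 higher and 20 lower. The direction of the count depends on the scaling. Without scaling factors the median of all names moved from -0.08 to -0.44 on the log2 scale, and 14 names were called higher and 56 lower. Calls numbered 23 without replicate 2 at 10 DAP, 22 without replicate 3 at 20 DAP and 38 without replicate 1 at 10 DAP (23 higher and 15 lower). Without replicate 3 at 10 DAP 13 names were called lower. In bulk flesh, fewer cells of a type and less RNA per cell cannot be told apart.

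**Figure D1:**
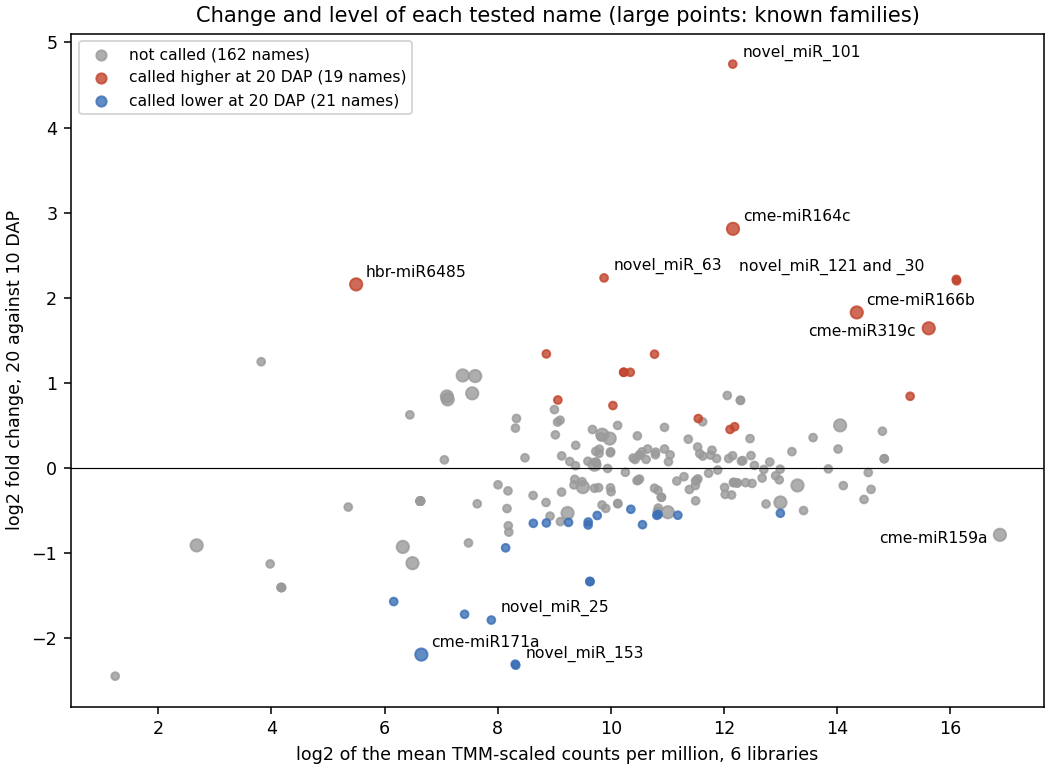
Log2 fold change from 10 to 20 DAP (vertical axis) against the log2 mean level in TMM-scaled CPM over the 6 libraries (horizontal axis) for each tested name with a count. The 19 called rises (red) reach 4.75 for novel_miR_101, and the 21 called falls (blue) reach -2.32 for novel_miR_153. Large points are names of known families.

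Known families were read through lists drawn by family number from textbook targets. The organ growth and meristem list covers families whose targets act on leaf and organ outgrowth, boundaries and meristems, and held 11 listed names. Of the 9 tested, 3 were called higher (against 9.31% of all names) and 1 lower (against 10.3%). Of these 9, cme-miR171c and mdm-miR171h (mdm for apple) had no count in the 6 libraries. Over the 7 names with a count the median log2 fold change was -0.20, and that of all tested names was -0.08. Summed over the list, levels were 45095 to 72642 CPM at 10 DAP and 129082 to 140826 CPM at 20 DAP. Most of this rise lay on 2 names and is not a rise of the list as a whole. They are cme-miR319c, with means of 24398 and 76114 CPM, and cme-miR166b, with 9149 and 32473 CPM.

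cme-miR164c showed the largest rise of any known family. In Arabidopsis miR164 acts on CUC genes, NAC factors that set organ boundaries, and in tomato it acts on further NAC genes. It stood at 1624, 839 and 963 CPM in replicates 1 to 3 at 10 DAP and 7285, 9015 and 7687 CPM at 20 DAP. The libraries at 20 DAP lay close together and all far above those at 10 DAP. Its log2 fold change was 2.81 (SE 0.31, edgeR adjusted p = 2.88e-06), a 7.01-fold rise. Over 16 alternative settings it ran from 2.48 to 3.15 and was called in each. cme-miR164b, the other listed name of the family, had 1 count at 10 DAP and 2 at 20 DAP and was not tested.

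cme-miR166b, whose HD-ZIP III targets set adaxial identity and vascular patterning in Arabidopsis, stood at 12633, 6571 and 8243 CPM in replicates 1 to 3 at 10 DAP and 29484, 34809 and 33125 CPM at 20 DAP. Replicate 1 was the highest at 10 DAP and still lay below every library at 20 DAP. The log2 fold change was 1.83 (SE 0.26, edgeR adjusted p = 5.02e-05), a 3.55-fold rise.

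The miR319 names had unequal changes. cme-miR319c stood at 32110, 20493 and 20590.5 CPM in replicates 1 to 3 at 10 DAP and 75192, 80150.1 and 73000.1 CPM at 20 DAP, with a log2 fold change of 1.64 (SE 0.27, edgeR adjusted p = 0.000386). Its libraries at 20 DAP were tightly grouped, above all at 10 DAP. cme-miR319a stood at 13761, 9354 and 9233 CPM at 10 DAP and 9815, 9589.7 and 8641 CPM at 20 DAP, a log2 fold change of -0.20 (SE 0.24) that was not called. cme-miR319b stood at 12235, 7703 and 7990.5 CPM at 10 DAP and 7235, 7248 and 6594 CPM at 20 DAP, with -0.40 (SE 0.26), also not called, although its ages did not overlap. Without scaling factors these 2 names were called lower, at -0.55 and -0.74. A share within the family does not depend on the scaling, and it was added after these values were seen. cme-miR319c took 55.3%, 54.6% and 54.5% at 10 DAP and 81.5%, 82.6% and 82.7% at 20 DAP of the miR319 counts. The libraries of an age differed little and the ages did not overlap, with means of 54.8% ± 0.436 and 82.3% ± 0.677 (SD, n = 3 each, exact permutation test, two-sided p = 0.1, the smallest that 3 against 3 libraries allow). How a read matching several miR319 names was counted is not given in the sources used here.

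cme-miR171a was the 1 known-family name called lower. miR171 targets GRAS transcription factors of the HAM group, which act in meristem maintenance. It had 35, 19 and 17 counts at 10 DAP and 5, 1 and 2 at 20 DAP. Few counts thus stand behind the older flesh, although its 3 libraries all lay below those of 10 DAP. Its log2 fold change of -2.19 (SE 0.72, edgeR adjusted p = 0.0422) was called in 9 of 16 alternative settings, with adjusted p-values from 0.00191 to 0.134. RLE factors, no filter and leaving out any 1 library other than replicate 3 at 10 DAP ended the call. cme-miR171d had 4 pooled counts at the younger age and 1 at the older. The scaled ratio of younger to older was 2.07 with an exact 95% counting interval of 0.205 to 102. cme-miR171i had no count at either age.

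**Figure D2:**
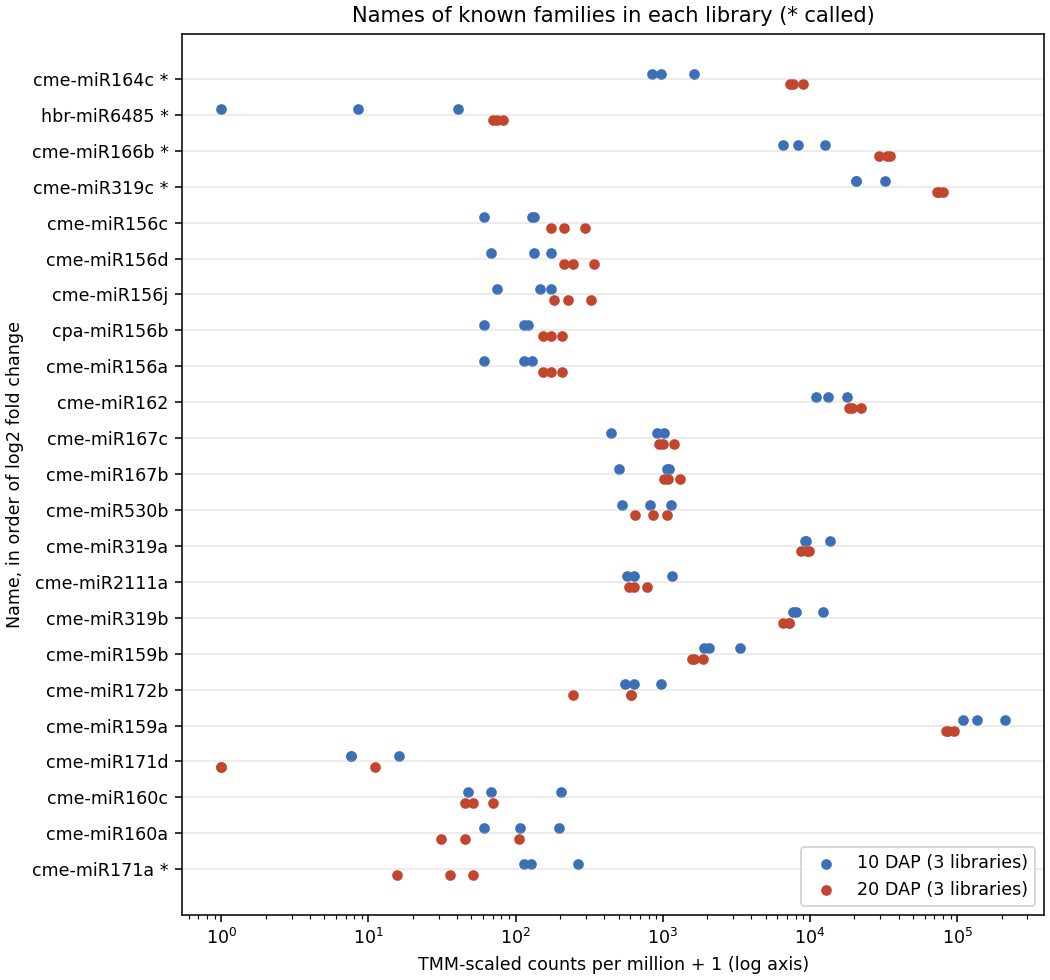
TMM-scaled CPM plus 1 (log axis) of each known-family name that was tested and had a count, in the 3 libraries at 10 DAP (blue) and the 3 at 20 DAP (red), ordered by log2 fold change with called names starred. cme-miR164c, cme-miR166b and cme-miR319c lie wholly to the right at 20 DAP, and cme-miR171a wholly to the left.

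The phase change list, of families that time the passage from juvenile to adult growth, had 0 names called higher and 0 lower of 6 tested by edgeR, with a median log2 fold change of 0.86. At an unadjusted p under 0.05 the count was 3, and DESeq2 called 0. The 5 tested names of miR156, a repressor of SPL genes, had log2 fold changes of 0.81 to 1.09. In each of them the 3 libraries at 20 DAP lay above the 3 at 10 DAP, as in 21.6% of all tested names. The names are low, and cme-miR156a and cpa-miR156b (cpa for papaya) are near-copies. The others also had similar counts, so the 5 names may not be separate evidence. cme-miR156j had 23, 11 and 22 counts at 10 DAP and 18, 22 and 13 at 20 DAP. cme-miR156d had 23, 10 and 20 counts at 10 DAP and 21, 23 and 14 at 20 DAP, at 1.08 (SE 0.41, edgeR adjusted p = 0.0682). It was called without replicate 1 at 10 DAP, at 1.38 (adjusted p = 0.0445). cme-miR156g had no count at 10 DAP and 4 at 20 DAP (3, 0 and 1), so the ages overlapped and it was not tested. Taking 3 pooled counts as the floor for 10 DAP, the scaled ratio was 2.57, which leaves out the counting error of the 4 counts. cme-miR172b, which represses AP2-like genes and acts opposite to miR156 in Arabidopsis, stood at 970.1, 553 and 638 CPM at 10 DAP and 605, 604 and 243 CPM at 20 DAP. Its libraries overlapped and it was not called at -0.53 (SE 0.35), but without scaling factors it was called lower at -0.87.

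The auxin list, of families that act on auxin signalling, had 0 of 4 tested names called in either direction by edgeR, with a median of -0.29. At an unadjusted p under 0.05 the count was 0, and DESeq2 called 0. cme-miR160a and cme-miR160c had log2 fold changes of -1.12 (SE 0.72) and -0.93 (SE 0.68), resting on 51 and 44 counts over the libraries at 10 DAP and 12 each at 20 DAP. cme-miR167b and cme-miR167c were at 0.35 (SE 0.39) and 0.39 (SE 0.40). The libraries of both ages overlapped for these 4 names.

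cme-miR159a, which acts on GAMYB-like genes, led all names by level at 10 DAP and ranked below novel_miR_121 and novel_miR_30 at 20 DAP. It stood at 210971, 108972 and 136436 CPM in replicates 1 to 3 at 10 DAP and 86196, 94734 and 83932 CPM at 20 DAP. All libraries at 20 DAP lay below those at 10 DAP, but the 10 DAP libraries were wide apart, and with TMM factors it was not called at -0.78 (SE 0.31, edgeR adjusted p = 0.0754). It was called lower without scaling factors, at -1.11 (adjusted p = 0.000134), and in a fit of the 6 libraries alone, at -0.76 (adjusted p = 0.0453). Its adjusted p over all alternatives is within the range of 0.000134 to 0.323. cme-miR159b, the other MYB regulator name, was at -0.52 (SE 0.32), not called, and called lower at -0.85 without scaling factors. The list of both thus had 0 names called by edgeR, with a median of -0.65. At an unadjusted p under 0.05 the count was 1, and DESeq2 called 0.

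Of the remaining known families, cme-miR162, whose family targets DCL1 and so acts on the miRNA pathway itself, stood at 17905, 10986 and 13271 CPM at 10 DAP and 18249, 22169.8 and 19243 CPM at 20 DAP. The ages did not overlap, and the log2 fold change of 0.50 (SE 0.22, edgeR adjusted p = 0.117) was not called. Without replicate 1 at 10 DAP it was called, at 0.71 (adjusted p = 0.0421). cme-miR2111a, which in Arabidopsis rises on phosphate starvation and is found in phloem, was the 1 listed name of the phosphate and sulphate list and of the phloem-mobile list, which stood for another tissue. It ranged from 573 to 1151 CPM at 10 DAP and from 590.0 to 781 CPM at 20 DAP, overlapping, at -0.22 (SE 0.33). cme-miR530b was at 0.04 (SE 0.30), with overlapping libraries. The ripening regulator list, which shares miR156, miR164 and miR172 with the lists above, had 1 name called higher (cme-miR164c) and 0 lower of 7 tested, with a median of 0.88. The copper and NBS-LRR defence lists had no listed name, and gma-miR5368 (gma for soybean) had no count in the 6 libraries.

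hbr-miR6485 (hbr for rubber tree) was called higher on few counts. It had 1, 0 and 6 counts at 10 DAP and 8, 5 and 4 at 20 DAP, and all 3 libraries at 20 DAP lay above those at 10 DAP in CPM. The log2 fold change of 2.16 (SE 0.72, edgeR adjusted p = 0.045) was called in 8 of the 14 alternative settings that tested it. Leaving out any 1 library other than replicate 3 at 10 DAP ended the call, with adjusted p-values up to 0.128. Without that replicate, which holds 6 of the 7 counts at 10 DAP, the log2 fold change was 4.06.

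**Figure D3:**
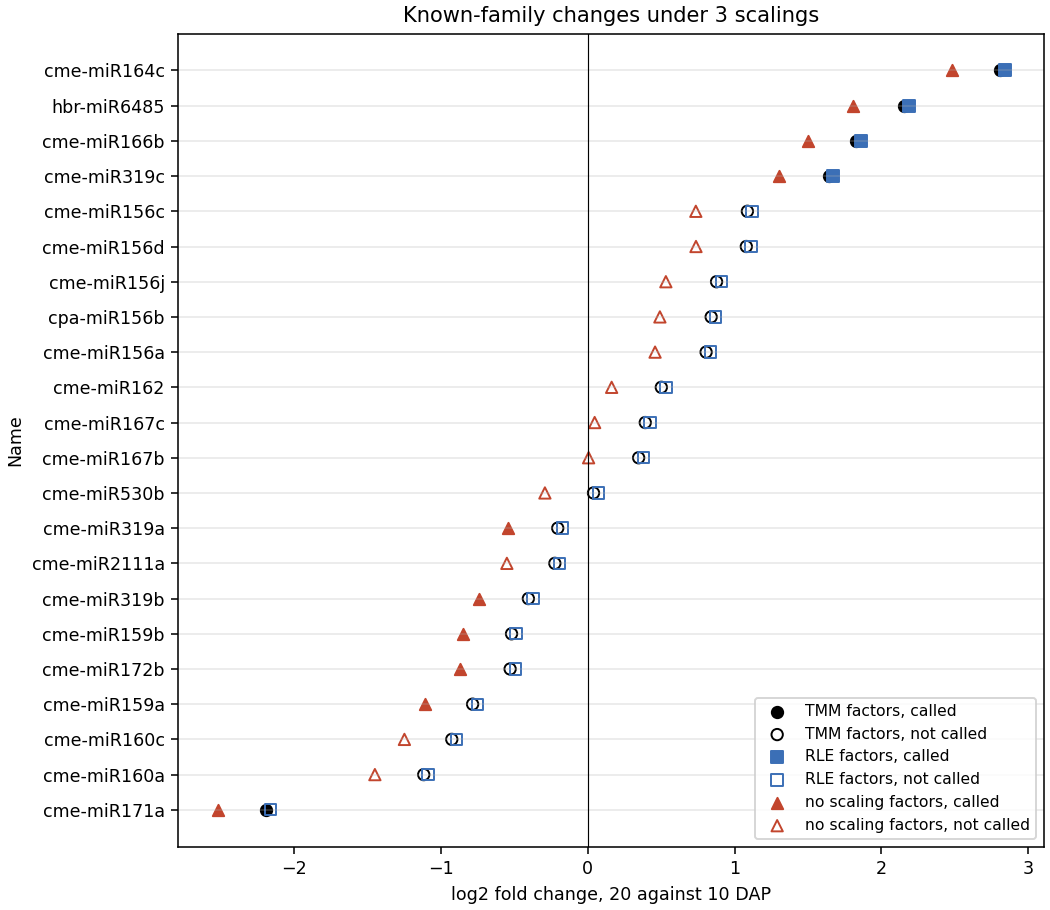
Log2 fold change from 10 to 20 DAP of known-family names with TMM factors (black circles), RLE factors (blue squares) and no scaling factors (red triangles), filled where called. cme-miR171d, with 5 counts in all, is left out. cme-miR164c, hbr-miR6485, cme-miR166b and cme-miR319c are filled under all 3 scalings, and without factors every name lies further to the left.

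The novel_miR names made up 35 of the 40 calls, 15 higher and 20 lower, which is 19.6% of the 179 tested. Their roles are not known, since the files give no sequence or target for them. novel_miR_101 showed the largest rise of all tested names, at 474, 259.7 and 252 CPM in replicates 1 to 3 at 10 DAP and 7306, 9796 and 9249 CPM at 20 DAP. The change is a 26.8-fold rise, with a log2 fold change of 4.75 (SE 0.28, edgeR adjusted p = 6.21e-10). It moved novel_miR_101 from rank 165 to rank 21 by mean level. novel_miR_63 stood at 323, 353 and 312 CPM at 10 DAP and 1461, 1812 and 1388 CPM at 20 DAP, a 4.7-fold rise (log2 2.23, SE 0.26). Its libraries at 10 DAP lay close together, replicate 1 included.

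novel_miR_121 and novel_miR_30 became the most abundant names. novel_miR_121 stood at 26666, 24841 and 24376 CPM in replicates 1 to 3 at 10 DAP and 118370, 117979 and 112042 CPM at 20 DAP, and novel_miR_30 at 26598, 24195 and 24024 CPM at 10 DAP and 117746, 118126 and 111869 CPM at 20 DAP. Their counts differ by at most 2.6% in any of the 6 libraries, so they are read as copies of 1 profile. The replicates of each age were tight, and the log2 fold changes were 2.20 (SE 0.16) and 2.22 (SE 0.16), each with an edgeR adjusted p of 6.92e-09.

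The other named rises were smaller. novel_miR_78 stood at 233, 186 and 372 CPM at 10 DAP and 726, 766 and 503 CPM at 20 DAP (log2 1.34, SE 0.29). novel_miR_40 stood at 1504, 659 and 817 CPM at 10 DAP and 2529, 2578 and 2395 CPM at 20 DAP (log2 1.34, SE 0.28). Both rises were called under all 16 alternatives. novel_miR_146 and novel_miR_175, with the same counts in all 18 libraries, rose 2.18-fold, with 932, 533 and 797 CPM at 10 DAP and 1632, 1679 and 1614 CPM at 20 DAP. novel_miR_170 stood at 1105, 579 and 757 CPM at 10 DAP and 1421, 1827 and 2099.6 CPM at 20 DAP, a log2 fold change of 1.12 that 4 of the 6 settings leaving out 1 library ended. novel_miR_46, abundant at both ages, stood at 40901, 22071 and 22982 CPM at 10 DAP and 51824, 51587 and 50737 CPM at 20 DAP. Its 10 DAP libraries spread widely while those at 20 DAP were tightly grouped, and the log2 fold change of 0.84 (SE 0.22) was not called without replicate 2 or without replicate 3 at 10 DAP.

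Among the falls, novel_miR_153 and novel_miR_87 went furthest. novel_miR_153 stood at 707, 439 and 458 CPM in replicates 1 to 3 at 10 DAP and 121, 103 and 86.8 CPM at 20 DAP, a log2 fold change of -2.32 (SE 0.47, edgeR adjusted p = 0.00214) and a 4.98-fold fall. novel_miR_87 differs from it by at most 1 count in any of the 6 libraries. The replicates at 20 DAP rest on 12, 7 and 5 counts, and the call held under all 16 alternatives.

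novel_miR_25 stood at 429, 306 and 352 CPM at 10 DAP and 70.5, 88.4 and 174 CPM at 20 DAP, with a log2 fold change of -1.79 (SE 0.31). Replicate 3 was the highest at 20 DAP and still lay below every library at 10 DAP. novel_miR_16 and novel_miR_17, identical to each other in all 18 libraries, stood at 1692, 766 and 949.8 CPM at 10 DAP and 453, 457 and 434 CPM at 20 DAP. Replicate 1 again was the highest at 10 DAP, while the 20 DAP values were close together, and the log2 fold change was -1.33 (SE 0.28). novel_miR_179 and novel_miR_59, at -1.72 (SE 0.57) and -1.57 (SE 0.51), had 18 and 8 counts over the libraries at 20 DAP. Both calls were lost in 5 of the 6 settings leaving out 1 library. novel_miR_29 (-0.94, SE 0.32) was lost in 5 of these 6 as well. novel_miR_79, at 1880.0, 1911 and 1754 CPM at 10 DAP and 1098, 1223 and 1179.9 CPM at 20 DAP, had a log2 fold change of -0.67 (SE 0.15) that was called under all 16 alternatives, and novel_miR_1, at 887, 992 and 963 CPM at 10 DAP and 524, 604 and 677 CPM at 20 DAP, had -0.67 (SE 0.21), a call lost in 3 of the 6 settings leaving out 1 library. The other 10 novel_miR falls lay between -0.65 and -0.48, and the other 5 novel_miR rises between 0.45 and 0.80. These 5 rises, novel_miR_113, novel_miR_114, novel_miR_120, novel_miR_156 and novel_miR_159, were named after their values were seen, and none was called without scaling factors. Without replicate 1 at 10 DAP, 10 of the 40 calls were lost, among them novel_miR_83, novel_miR_104, novel_miR_113, novel_miR_148, novel_miR_159 and novel_miR_178. Of the other 4, cme-miR171a was then at -1.73 (edgeR adjusted p = 0.126), hbr-miR6485 at 1.87 (edgeR adjusted p = 0.102), novel_miR_179 at -1.58 (edgeR adjusted p = 0.0852) and novel_miR_29 at -0.94 (edgeR adjusted p = 0.0782).

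Shares of the listed counts, which use no scaling factor, show the change in make-up directly. novel_miR_121 and novel_miR_30 together took 5.31%, 6.44% and 5.92% at 10 DAP and 21.7%, 20.9% and 20.8% at 20 DAP. cme-miR159a took 21%, 14.3% and 16.7% at 10 DAP and 7.93%, 8.39% and 7.8% at 20 DAP. cme-miR319c took 3.2%, 2.69% and 2.52% at 10 DAP and 6.92%, 7.1% and 6.78% at 20 DAP. For each of these the ages did not overlap, the novel_miR pair and cme-miR319c being higher and cme-miR159a lower at 20 DAP. Where the novel_miR pair counts the same reads under both names, its true share is smaller. The 19 names called higher held 15.7%, 14.7% and 14.4% at 10 DAP and 39.9%, 39.6% and 39.4% at 20 DAP, which their choice fixes in direction, and the 21 called lower held 3.18%, 3.69% and 3.46% at 10 DAP and 1.63%, 1.68% and 1.72% at 20 DAP.

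The 10 most abundant names of each library held 50.3%, 41.6% and 44.2% at 10 DAP and 54.3%, 55.3% and 53.7% at 20 DAP, with means of 45.3% ± 4.47 and 54.4% ± 0.814 (SD, n = 3 each). With copies counted as separate names, the listed pool was thus more concentrated at 20 DAP in all 3 libraries (exact permutation test, two-sided p = 0.1, the smallest possible). With near-copies joined the difference of 9.05 percentage points became 5.29. That the ages lie apart is stated only for copies counted separately. Names of known families held 31%, 22.3% and 24.9% at 10 DAP and 22.1%, 23.6% and 22.2% at 20 DAP, which overlapped (exact permutation test, two-sided p = 0.2). Replicate 1 at 10 DAP gave the highest of these shares, and without it the difference between the means shrank from -3.48 to -1.02 percentage points. When each library was thinned to 62050 counts, the names expected with a count were 199.3 ± 1.45 at 10 DAP and 198.6 ± 2.2 at 20 DAP (exact permutation test, two-sided p = 0.8), a difference within the spread of replicates.

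**Figure D4:**
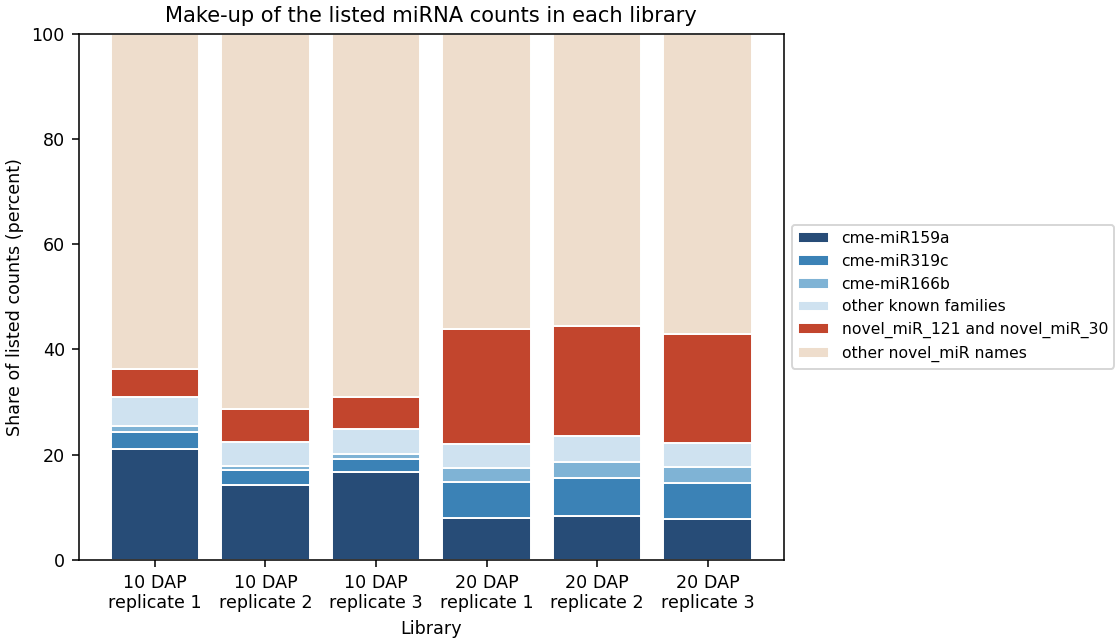
Share of listed counts (percent) of 3 abundant known-family names, all other known families, the near-copies novel_miR_121 and novel_miR_30, and all other novel_miR names, stacked for each of the 6 libraries. The novel_miR pair takes 5.31% to 6.44% at 10 DAP and 20.8% to 21.7% at 20 DAP, while cme-miR159a shrinks.

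Of the other most abundant names, 5 were not called. novel_miR_14 and novel_miR_60, identical to each other, were at 28042 ± 8247 and 30243 ± 2975 CPM (log2 0.11, SE 0.25). novel_miR_5 was at 24398 ± 9560.1 and 23514 ± 619.8 CPM (log2 -0.05, SE 0.36). For these 3 names the libraries of both ages overlapped. novel_miR_106 was at 0.43 (SE 0.21) and novel_miR_12 at -0.25 (SE 0.13), neither called. novel_miR_106 was called higher without replicate 1 at 10 DAP, at 0.69, and novel_miR_12 lower without scaling factors, at -0.62.

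Levels at the other ages, in CPM with TMM factors, place these changes. The factors were 0.531 to 0.704 at 30 DAP, 0.886 to 0.929 at 20 DAP and 1.24 to 1.39 at 0 DAP. A lower factor gives a higher level for the same share of counts. The ages of highest and lowest level thus depend on the scaling, and they were not tested without factors. Of the 19 names called higher, 14 had their highest mean level at 30 DAP, 4 at 20 DAP and 1, cme-miR166b, at 0 DAP. Of the 21 called lower, 13 had their lowest mean level at 30 DAP and 8 at 20 DAP. cme-miR166b had its lowest level at 10 DAP: it stood at 49481 ± 7304 CPM at 0 DAP, 16518 ± 2589 at 5 DAP, 9149 ± 3131 at 10 DAP, 32473 ± 2722 at 20 DAP and 44165 ± 14502 at 30 DAP (SD, n = 3 each). cme-miR164c was also lowest at 10 DAP, with mean levels of 1930.3 CPM at 0 DAP and 2509 CPM at 5 DAP before it and 16539 CPM at 30 DAP after it. For novel_miR_153 the levels at 20 and 30 DAP were alike within their spread, at 104 ± 17.1 and 113 ± 69 CPM.

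The share of cme-miR319c among miR319 counts was highest at 20 DAP. It averaged 27.7% at 0 DAP, 24.1% at 1 DAP, 35.7% at 5 DAP and 71.9% ± 1.53 at 30 DAP (SD, n = 3). The 3 libraries at 30 DAP all lay below the 3 at 20 DAP.

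The neighbouring steps share libraries with this one, so their values are set side by side only. They rest on the same TMM factors. From 5 to 10 DAP 38.7% of names were called, and from 20 to 30 DAP 19.6% (11.3% higher and 8.33% lower). From 5 to 10 DAP, from 10 to 20 DAP and from 20 to 30 DAP, cme-miR164c had log2 fold changes of -1.14, 2.81 and 1.05, and cme-miR319c of 0.52, 1.64 and 0.35. novel_miR_101 had 1.93, 4.75 and 0.81, and novel_miR_63 had 0.65, 2.23 and 0.50. For these 4 names the value from 10 to 20 DAP was the largest of the 3, which their choice for a large change in that step favours. hbr-miR6485 had 0.64, 2.16 and 5.26, with its largest value after 20 DAP. novel_miR_1 had 0.28, -0.67 and -1.56, also largest in size after 20 DAP.

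The step from 1 to 5 DAP shares no library with that from 10 to 20 DAP, and the difference between the 2 steps was tested in the same fit. The early step alone was called for 53.4% of names. The difference was called for 70 of 204 names (34.3%), among them 12 of the 19 names called higher and 9 of the 21 called lower. It contains the step by which the 19 and the 21 were called, so these 2 counts are not independent of the calls. Of the 19, 9 were also called higher from 1 to 5 DAP (against 27.5% of all names) and 1 was called lower (against 26%). That 1 name was cme-miR166b, at -1.49 (SE 0.25) in the early step, and its difference between the steps was 3.32 (SE 0.36, edgeR adjusted p = 2.08e-06). Of the 21, 6 were also called lower in the early step (against 26% of all names). Called higher in it were 3 (against 27.5%), the identical novel_miR_16 and novel_miR_17 and novel_miR_83. novel_miR_16 had 1.44 in the early step, a difference of -2.77 (SE 0.37, edgeR adjusted p = 1.17e-05).

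Several of the strongest rises were larger in the late step, which their choice by that step favours. cme-miR164c had 0.48 from 1 to 5 DAP, a difference of 2.33 (SE 0.42, edgeR adjusted p = 0.000303). novel_miR_101 had 1.17 and a difference of 3.58 (SE 0.62, adjusted p = 0.000191), and novel_miR_121 had 0.32 and a difference of 1.88 (SE 0.22, adjusted p = 3.14e-06). The opposite held for novel_miR_40, novel_miR_46 and novel_miR_146, whose rises in the early step were larger, with differences of -3.46, -2.80 and -2.70 and each adjusted p under 0.05. For cme-miR319c the steps were not shown to differ (0.34, SE 0.38, edgeR adjusted p = 0.523). The miR156 names, uncalled from 10 to 20 DAP, were called lower in the early step and differed between the steps. cme-miR156d had -1.72 in the early step and a difference of 2.80 (SE 0.58, edgeR adjusted p = 0.0012).

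**Figure D5:**
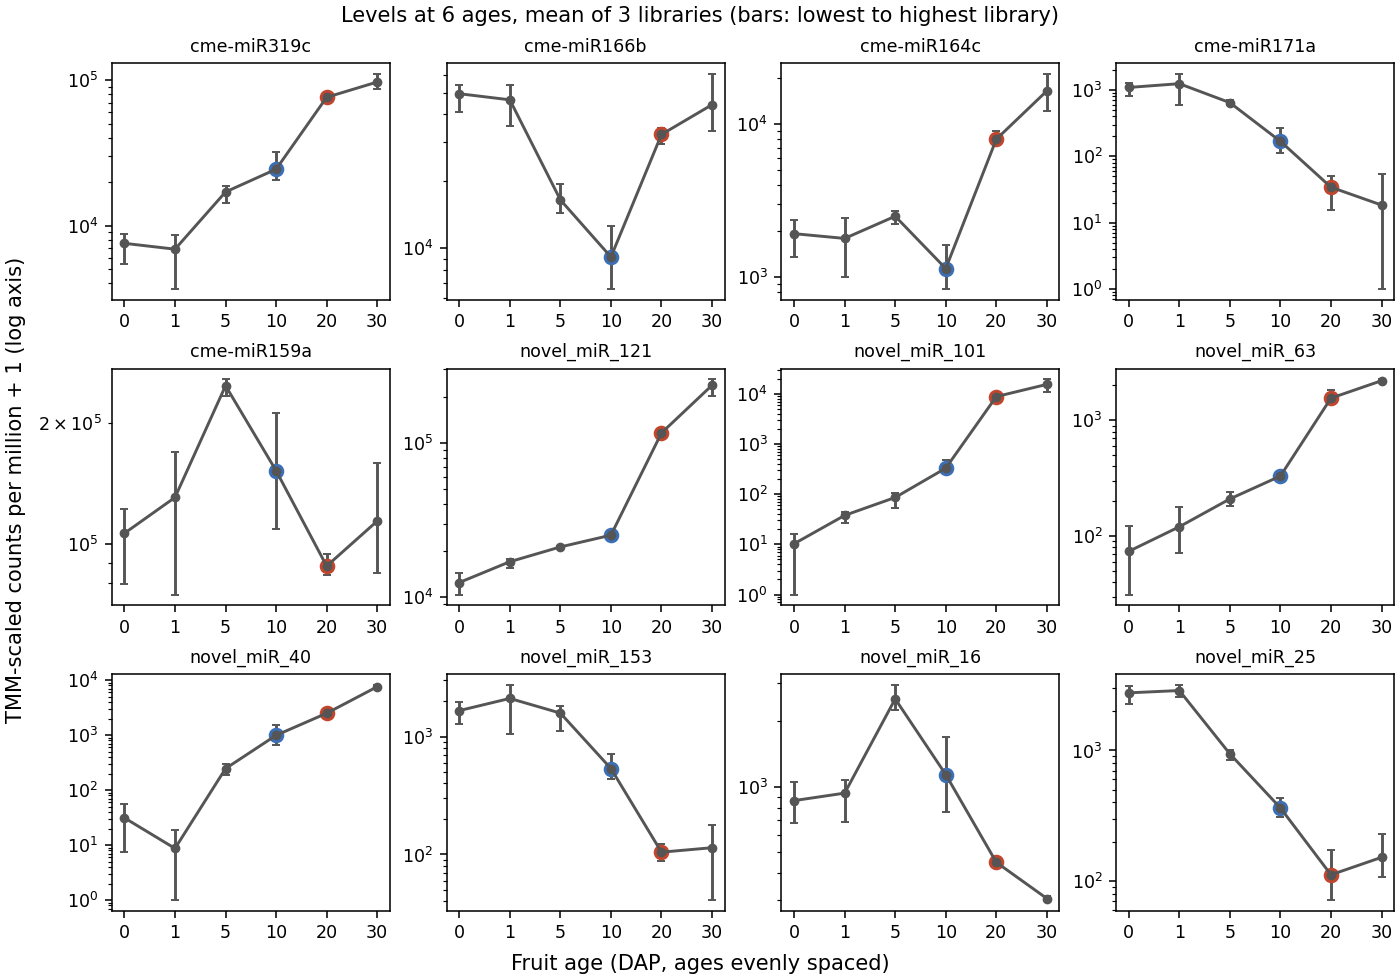
Mean TMM-scaled CPM plus 1 (log axis) of 12 names at 6 fruit ages, with bars from the lowest to the highest of 3 libraries and 10 DAP (blue) and 20 DAP (red) marked. cme-miR166b and cme-miR164c are lowest at 10 DAP, and novel_miR_121, novel_miR_101 and novel_miR_63 have their largest change per step between 10 and 20 DAP. Ages are evenly spaced, so slopes are per step and not per day.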

How the data were processed

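Per the labels' protocols, Trizol-extracted flesh RNA was size-selected on a denaturing gel and made into libraries by Illumina's procedure. fastp and BWA are named, per the submitters' processing notes. Not given in the sources used here are their versions, the build, the miRNA reference and how reads were assigned. The deposited tables hold whole-number counts per miRNA name, 1 library each, with no normalization. Samples were grouped by labelled age and title.

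Counts of the 18 libraries at 6 ages were fitted together with edgeR 4.0.16 in R 4.3.3 (filterByExpr with a minimum count of 10, TMM factors, quasi-likelihood F test, no other term), and p-values were adjusted over all 204 names tested. SEs are the log2 fold change divided by the square root of F. Alternatives were RLE or no factors, no filter, a minimum count of 30, DESeq2 1.42.0, the 6 libraries alone, replicate blocks, 1 name per identical pattern or, added after seeing the data, per near-identical profile, and leaving out each of the 6 libraries. Shares were compared by exact permutation tests. Named were all known families, the 10 largest called novel_miR rises and falls without overlap, and the 10 highest levels. The miRNA lists and the comparison were chosen with earlier results of these data known. The fit was tested on simulated data. Replicates of an age had Spearman correlations of 0.971 to 0.993, and every pair differed by more than sampling noise. Chi-square over degrees of freedom was 9.07 to 43.2 for pairs at 10 DAP and 1.97 to 4.50 at 20 DAP. The ages thus appeared to have unequal spread, while the fit shared its estimate of the spread over all ages. This ratio also grows with depth, which was lower at 20 DAP, so it does not measure the difference in spread alone. No molecular identifiers are mentioned, so counting intervals and floors leave out other error.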

Additional observations from a re-analysis of the deposited data

How the results depend on the processing

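Of the 40 calls, 17 (11 higher and 6 lower) held under every one of the 16 alternatives that tested them, and no called name changed direction. The 17 hold fewer distinct profiles, since they include copies or near-copies. These are novel_miR_153 with novel_miR_87, novel_miR_121 with novel_miR_30, novel_miR_16 with novel_miR_17 and novel_miR_146 with novel_miR_175. Without scaling factors 70 names were called, 14 higher and 56 lower, and 9 names on the family lists against 4. The median of all names then shifts by -0.37 on the log2 scale. DESeq2 called 51, with 29 higher and 22 lower. Leaving out 1 library gave 22 to 38 calls, 12 to 23 higher and 10 to 18 lower, 3 to 5 list names and 60 to 69 names that differed between steps. In these settings the difference between 20 and 10 DAP ran from -5.37 to -1.02 percentage points for the share on known families, from 7.17 to 11.5 for the share on the 10 most abundant names and from -1.78 to 0.162 for names expected at equal depth. That last value was 0.162 without replicate 1 at 20 DAP. This library had the fewest names expected at its age, 196.7 against 198.0 and 201 in replicates 2 and 3, and why it was lower was not tested.

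Same-numbered libraries did not deviate together (correlations of -0.10 to -0.05 over names, 0 of 3 best with their own number). With 3 libraries an age, the deviations are tied to each other, so this cannot decide whether the numbers pair the samples. With replicate numbers as a block, 18 libraries gave 48 calls, 27 higher and 21 lower, with cme-miR156c and cme-miR156d newly called at 1.15 and 1.12 (edgeR adjusted p = 0.0336 each). The 6 libraries alone with the block gave 24, 16 higher and 8 lower, with novel_miR_29 and novel_miR_1 among the calls lost. Depth limits names such as cme-miR171a and hbr-miR6485, whose calls rest on 8 counts at 20 DAP and 7 at 10 DAP.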
